A study of Mus musculus with 6 samples.

Results

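The genes that lie within 5 Mb of Kdm6b on mouse chromosome 11 are described here in granulosa cells of wild-type mice and of mice with a Kdm6b knockout. A gene was included when its lowest start in the count files fell in chr11:64398508-74413675 (GRCm38), a window of 10.02 Mb that reaches 5 Mb past each end of Kdm6b. Distances from Kdm6b are measured from this lowest coordinate. For a gene on the minus strand it is the end of the gene and not its transcription start. Of 49315 genes counted, 357 started there, and Kdm6b and 3 further genes were left out by the rule, which leaves 353 genes. At least 1 count was found for 253 of them and none for 100. The filter on low counts kept 174 for testing, and the other 79 with counts were not tested.

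Granulosa cells are the somatic cells that surround and feed the oocyte in the ovarian follicle. They were freshly isolated from the ovaries of female mice aged 8 to 9 weeks and labelled C57BL/6J, with 3 libraries from wild-type (WT) animals and 3 from animals with a knockout (KO) of Kdm6b, also named Jmjd3, made specific to granulosa cells. No treatment is named for either group. The exons removed, the promoter that drives the deletion and the parents' strains are not stated in the sources at hand. Whether replicates came from separate animals is not said either, so the spread behind each p-value may be technical.

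Kdm6b encodes a demethylase that takes the repressive trimethyl mark off lysine 27 of histone H3, and such an enzyme can act on genes anywhere in the genome. Genes beside a targeted locus are a separate matter, because they are inherited together with the altered allele and share its stretch of chromosome. A change in a neighbour can then come with the linked DNA, with the altered locus itself or with the loss of the protein. Whether the WT animals carry an undeleted form of the same allele is not stated in the sources at hand, and gene counts do not separate these cases. The stretch holds genes of many kinds, among them skeletal muscle myosins, lipoxygenases, olfactory receptors, translation factors and Xaf1, an interferon-inducible gene whose protein opposes the caspase inhibitor XIAP.

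The promoters of 4 members are shown because the results turn on them: Xaf1 had the largest increase of the stretch, 6330403K07Rik a decrease close to the threshold, and Borcs6 and Hes7 lie in a run of 6 neighbours that were all higher in KO. Each sequence is 300 bases of RefSeq (GRCm38.p6), most of it before the gene's start. Capitals mark matches to AANNGAAA, a short form of the element bound by interferon regulatory factors, searched on both strands (TTTCNNTT when read on the printed strand).
Xaf1, chr11:72301379-72301678, plus strand: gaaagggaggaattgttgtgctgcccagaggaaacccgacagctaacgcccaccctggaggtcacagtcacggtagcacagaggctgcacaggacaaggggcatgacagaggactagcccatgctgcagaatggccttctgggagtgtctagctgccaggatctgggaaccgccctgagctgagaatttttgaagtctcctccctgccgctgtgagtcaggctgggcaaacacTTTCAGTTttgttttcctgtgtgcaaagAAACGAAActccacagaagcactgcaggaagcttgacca
6330403K07Rik, chr11:71033568-71033867, minus strand: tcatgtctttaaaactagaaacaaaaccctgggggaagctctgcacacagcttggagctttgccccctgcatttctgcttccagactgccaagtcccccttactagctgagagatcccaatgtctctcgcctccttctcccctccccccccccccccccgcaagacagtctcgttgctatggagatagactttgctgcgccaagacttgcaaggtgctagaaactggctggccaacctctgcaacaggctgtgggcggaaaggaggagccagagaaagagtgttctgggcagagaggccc
Borcs6, chr11:69059525-69059824, plus strand: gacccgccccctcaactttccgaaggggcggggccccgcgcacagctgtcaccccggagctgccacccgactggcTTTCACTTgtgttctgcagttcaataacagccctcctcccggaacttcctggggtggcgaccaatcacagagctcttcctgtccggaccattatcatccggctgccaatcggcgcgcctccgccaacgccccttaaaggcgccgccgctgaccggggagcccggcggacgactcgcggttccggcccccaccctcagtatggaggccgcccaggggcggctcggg
Hes7, chr11:69120203-69120502, plus strand: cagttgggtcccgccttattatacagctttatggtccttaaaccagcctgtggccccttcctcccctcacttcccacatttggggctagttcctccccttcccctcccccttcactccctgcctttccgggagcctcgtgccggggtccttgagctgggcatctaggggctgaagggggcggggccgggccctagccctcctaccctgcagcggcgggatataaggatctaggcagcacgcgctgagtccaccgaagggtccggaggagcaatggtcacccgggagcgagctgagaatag

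The Xaf1 promoter held 2 matches, one whose first base lies at -17 and one at 12 counted from the gene's start, where the first transcribed base is 1. Borcs6 held 1 match, at -175, and the promoters of 6330403K07Rik and Hes7 held none. Of all 32851 promoters of 300 bases in the RefSeq table, 23.9% held at least 1 match and 5.34% held at least 2. The Xaf1 promoter had 6 CpG pairs and that of 6330403K07Rik had 5, while Borcs6 had 29 and Hes7 had 14. A match is a description of the letters and not a binding site. Of the 174 tested members, 123 have a promoter in the table, 154 promoters in all, and 20.1% of these held at least 1 match. The share was 16.3% of 43 promoters of members whose WT and KO libraries did not overlap, and 21.6% of 111 of the others. The remaining tested members have no promoter there, and no test was made of these shares.

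Libraries held from 42379018 to 49901493 counts (KO replicate 2 and WT replicate 1), and the members took between 0.706% and 0.74% of them. The granulosa cell genes Foxl2 (112 ± 8.56 CPM in WT and 123 ± 7.03 in KO, SD, n = 3) and Fshr (123 ± 8.50 and 128 ± 16.5) were expressed in all 6 libraries, where CPM is the normalised read count (counts scaled to library size by TMM). Of the whole list of 20 granulosa cell markers, 3 were called lower in KO (Wt1, Nr0b1 and Amhr2) and 17 were not called, with sums of 18991 to 22209 CPM in WT and 21894 to 30127 in KO and log2 fold changes from -1.01 to 1.29. Of the 20, 14 had a positive log2 fold change (median 0.23), and for 7 the WT and KO libraries did not overlap. Over all genes tested 0.219% were called. KO replicate 3 stood apart: its Areg and Ereg, growth factor genes that luteinising hormone induces in granulosa cells, were at 241 and 261 CPM, against at most 0.981 and 1.31 in the other 5 libraries. Some of the values below that move with this library are also given without it. The red blood cell marker list was at 383 to 798 CPM in sum in WT and 830 to 2260 in KO, with 1 of 7 genes called. Immune markers were at 268 to 342 and 224 to 421 (0 of 22 called) and endothelial markers at 217 to 256 and 186 to 392 (0 of 12). Theca and interstitial markers were at 235 to 307 and 350 to 494 (0 of 7), and oocyte markers at 927 to 1185 and 753 to 849 (0 of 14). Log2 fold changes were positive for 7 of 7 red blood cell, 19 of 22 immune, 11 of 12 endothelial, 4 of 7 theca and interstitial and 0 of 14 oocyte markers. Each KO library lay above each WT library for all 7 red blood cell markers, and below for 6 of the 14 oocyte markers. Of all genes tested, 15.6% were apart in either direction. No defining marker of these lists was at 0, and their part in the results below was not tested. In bulk RNA, fewer cells of a type and less RNA per cell cannot be told apart.

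Kdm6b itself (chr11:69398508-69413675, minus strand) was measured at 72.8, 66.3 and 66.2 CPM (WT replicates 1 to 3) against 64.7, 68.6 and 112 CPM (KO replicates 1 to 3). The groups overlapped, and only KO replicate 3 was outside the WT range by more than a few CPM. The log2 fold change, KO minus WT, was 0.26 ± 0.22 (SE; adjusted p = 0.755, edgeR), and without KO replicate 3 it was -0.04 (adjusted p = 0.875). Counts over the whole gene can keep reads of exons that were not removed, so the genotype rests on the labels.

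Of the 174 tested members, 2 passed the threshold in KO against WT: Xaf1 rose and the antisense transcript Tnfsf13os fell. A gene is called at a Benjamini-Hochberg adjusted p under 0.05 in edgeR's quasi-likelihood test over all 18250 genes tested, where 40 were called (0.219%), 0.126% higher and 0.0932% lower. The members' share was 1.15%, and that of the 1287 tested genes on the rest of chromosome 11 was 0.389% (5 genes). With called genes counted in, 33 members (19.0%) had an unadjusted p under 0.05 in edgeR, against 9.16% of all genes tested and 9.17% of the rest of the chromosome. The groups did not overlap for 49 members (28.2%), meaning that each KO library lay above or below each WT library, against 15.6% of all genes. Of these, 31 were higher in KO (17.8%, against 7.68% of all genes) and 18 were lower (10.3%, against 7.89%). Under upper quartile scaling 43 members (24.7%, against 16.3% of all genes) had groups without overlap, 23 higher and 20 lower. Most differences were small, since 131 of the 174 had an absolute log2 fold change under 0.3 and 8 reached 1. The median over the tested members was 0.04, against 0.004 over all genes tested, and the median absolute value was 0.13 against 0.12.

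**Figure D1:**
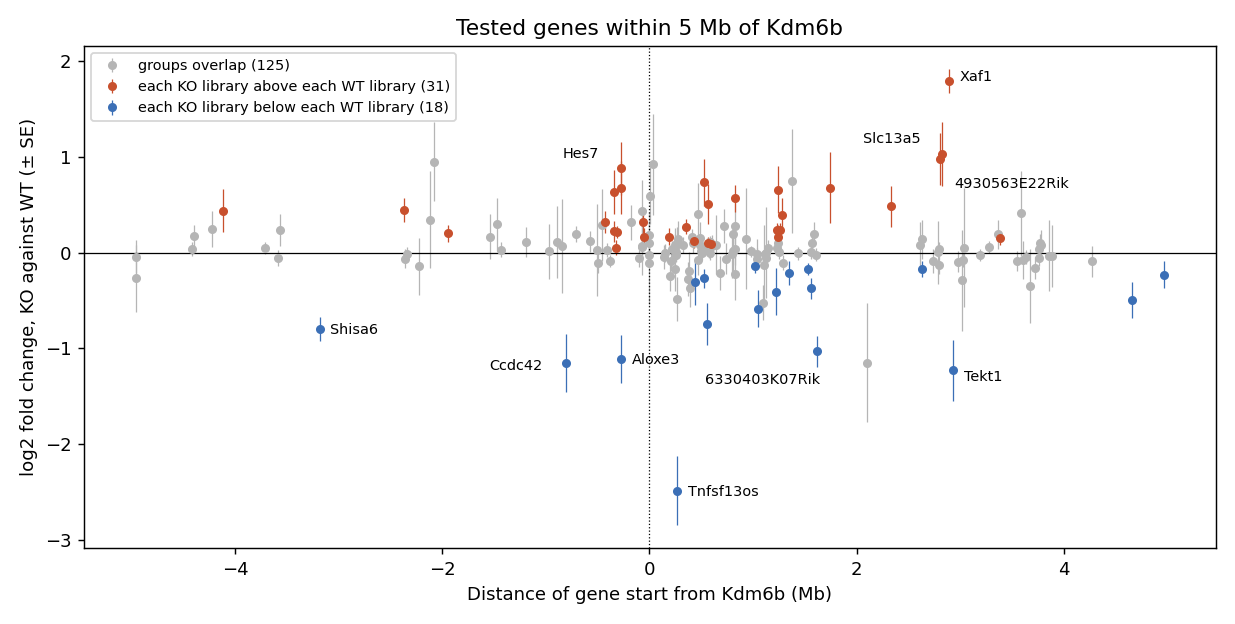
Log2 fold change of KO against WT (± SE, from edgeR) for the 174 tested members, by distance of the gene's lowest coordinate from Kdm6b in Mb, with negative distances before Kdm6b. Red points are the 31 members with each KO library above each WT library, blue points the 18 with each below, and grey points the 125 whose groups overlap. Xaf1 is the highest point at 1.79 and Tnfsf13os the lowest at -2.49.

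The same counts were made over the 102 members with a mean of at least 5 CPM, since low genes vary more. Among these, 26 (25.5%) had groups without overlap, 19 higher and 7 lower, against 15.5% of all 11517 genes at that level and 15.7% of the 834 on the rest of the chromosome. Over all levels, without KO replicate 3 the share was 39.8% of the members (70 of 176) against 32.9% of all genes. With each of the other libraries left out in turn, it was between 31.8% (without WT replicate 3) and 38.4% of the members and between 22.8% and 25.1% of all genes. The members' share was thus above that of all genes with each of the 6 libraries left out. Along chromosome 11, cut into windows of the same length (shorter at the chromosome's ends), the share was 28.2% around Kdm6b and from 8 of 80 genes to 22.9% in the 12 other windows. The window just before held 30 of 145 (20.7%) and the one just after 25 of 180 (13.9%). Neighbouring genes share exons and regulatory DNA, so they are not independent points, and no test was made of these shares.

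**Figure D2:**
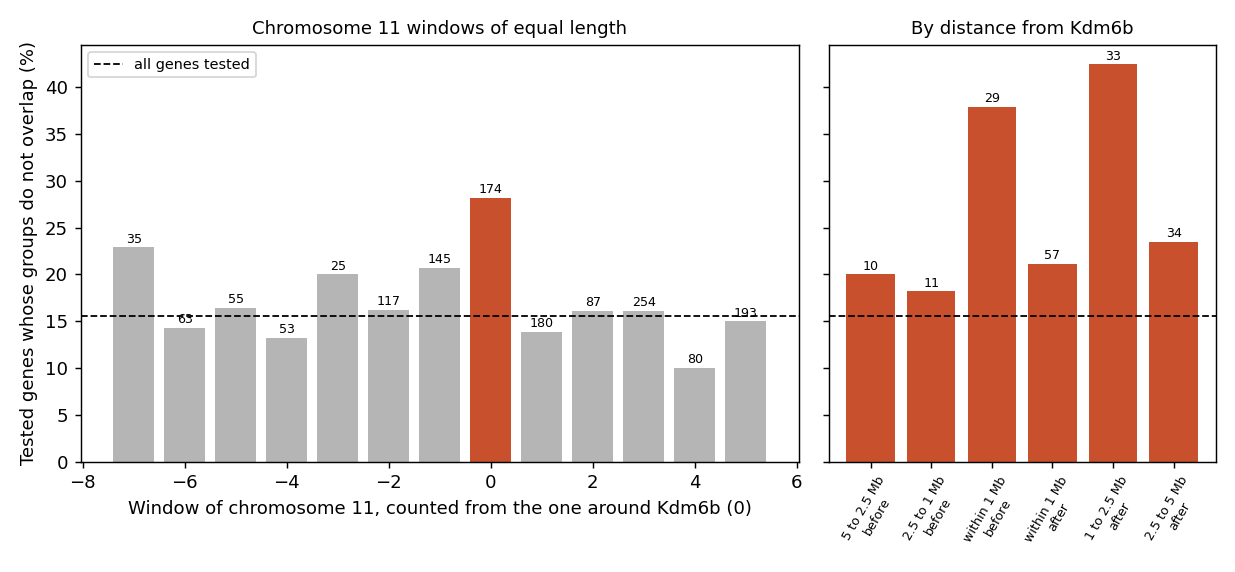
Share of tested genes whose WT and KO libraries do not overlap, in percent, for windows of chromosome 11 of equal length (left, the window around Kdm6b in red) and for the members by distance from Kdm6b (right). Numbers over the bars are genes tested and the dashed line is the 15.6% of all genes tested. The window around Kdm6b has the tallest bar of the chromosome at 28.2%, and within it the share does not fall steadily with distance.

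The share did not fall steadily with distance from Kdm6b. It was 37.9% (11 of 29) within 1 Mb before Kdm6b and 21.1% (12 of 57) within 1 Mb after it. From 1 to 2.5 Mb after the gene it was 42.4% (14 of 33), and from 2.5 to 5 Mb after it 23.5% (8 of 34). Before the gene, 2 of 11 members between 2.5 and 1 Mb and 2 of 10 between 5 and 2.5 Mb had groups without overlap. The directions were 9 higher and 2 lower within 1 Mb before Kdm6b, and 7 and 7 from 1 to 2.5 Mb after it. Over the 174 tested members, Spearman's rho of the absolute log2 fold change was -0.02 with distance from Kdm6b and -0.44 with mean CPM; the points share their 6 libraries.

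The 8 nearest tested members with a mean of at least 1 CPM on each side of Kdm6b show how the immediate neighbours behaved. Tested antisense transcripts at Kdm6b, Dnah2 and Kcnab3 were under that level and are not among them. None of the 16 was called, which says little where 0.219% of all genes tested were called. The groups of 13 overlapped and those of Rnf227, Chd3 and Atp1b2 did not, and over all genes tested 15.6% had groups without overlap. Kcnab3, which encodes a beta subunit of voltage-gated potassium channels and starts 0.072 Mb before Kdm6b, was at 37.5, 33.5 and 36.1 CPM (WT) against 60.3, 57.5 and 26.8 CPM (KO). Replicates 1 and 2 of KO were above the WT range and replicate 3 was below it. The log2 fold change was 0.43 ± 0.32 (SE; adjusted p = 0.722, edgeR), and without KO replicate 3 it was 0.72 with an adjusted p of 5.1e-05, while over the 13 alternatives the adjusted p ran from 5.1e-05 to 0.92.

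Chd3, a chromatin remodeller of the NuRD complex that starts within 0.1 Mb before Kdm6b, was at 189, 192 and 191 CPM (WT) against 193, 198 and 248 CPM (KO). Its groups did not overlap by a narrow margin, and KO replicate 3 alone stood well above the rest (log2 fold change 0.16 ± 0.10, SE, adjusted p = 0.658, edgeR). Without that library the log2 fold change of Chd3 was 0.04 (adjusted p = 0.889, edgeR). Beside it, Rnf227 was at 11, 10.8 and 10.2 CPM (WT) against 13.3, 14.8 and 11.7 CPM (KO) (0.32 ± 0.11, SE, adjusted p = 0.437, edgeR). Directly after Kdm6b, Dnah2, an axonemal dynein heavy chain, was at 11.2, 9.42 and 11.1 CPM (WT) against 14.8, 10.03 and 23.1 CPM (KO), so the groups overlapped and KO replicate 3 was again the highest library. Its log2 fold change was 0.59 ± 0.30 (SE; adjusted p = 0.609, edgeR), and 0.23 without KO replicate 3 (adjusted p = 0.526). Kdm6b, Chd3 and Dnah2 were thus all highest in KO replicate 3, whereas Kcnab3 was lowest there. Of the other neighbours, Efnb3, Atp1b2 and Fxr2 were also highest in that library, some by a narrow margin. Tmem88, Cyb5d1, Wrap53, Shbg, Sat2 and Mpdu1 were also lowest in it, so the neighbours had no common direction there.

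The other 12 neighbours had log2 fold changes between -0.25 (Shbg) and 0.18 (Tmem88). Shbg, the gene of the sex hormone-binding globulin that carries androgens and oestrogens, was at 4.59, 3.92 and 5.04 CPM (WT) against 3.99, 3.93 and 3.49 CPM (KO) (adjusted p = 0.647, edgeR). Atp1b2, a beta subunit of the sodium pump, was at 460, 519 and 540 CPM (WT) against 543, 578 and 581 CPM (KO), without overlap but with KO replicate 1 close to WT replicate 3 (0.17 ± 0.09, SE, adjusted p = 0.612, edgeR). Cyb5d1, Wrap53 and Efnb3 had log2 fold changes of -0.03, -0.01 and -0.04, and Wrap53, a partner of telomerase RNA, was at 15.4 to 17.6 CPM in WT and 14.9 to 17.3 CPM in KO. Directions of the small differences of Tmem88, Cyb5d1, Trappc1, Cntrob, Efnb3, Wrap53, Fxr2 and Mpdu1 turn in at least 1 alternative.

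**Figure D3:**
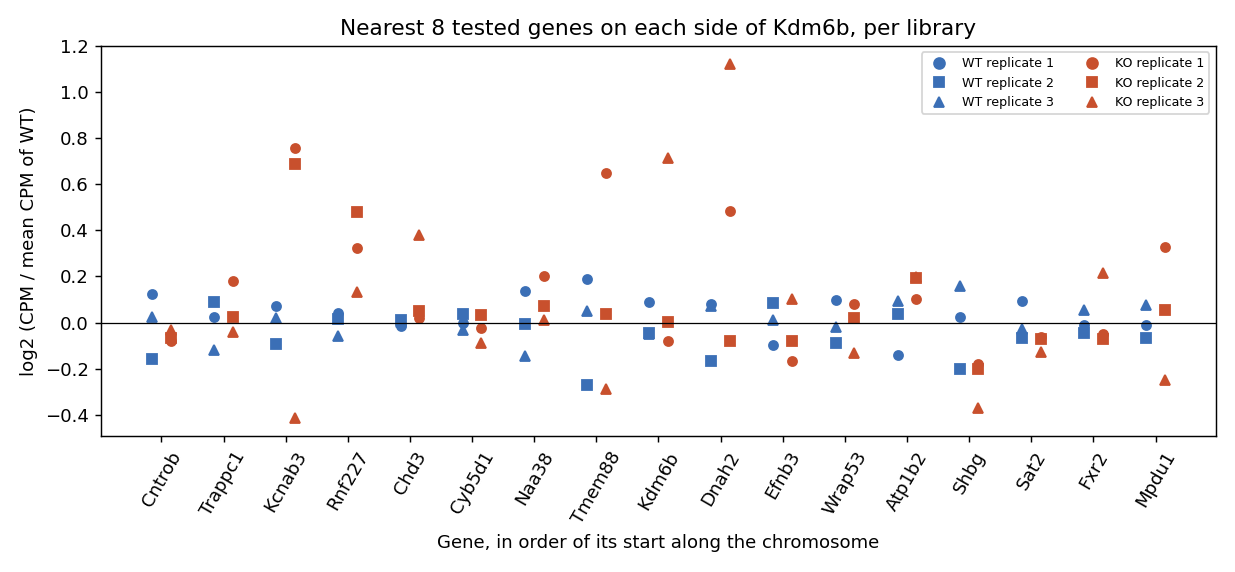
Level of Kdm6b and of the 8 nearest tested members with a mean of at least 1 CPM on each side in each library. Values are log2 of CPM over the mean CPM of the 3 WT libraries, in order along the chromosome. Blue is WT and red is KO, and circles, squares and triangles are replicates 1, 2 and 3. KO replicate 3 is the highest library for Kdm6b (112 CPM), Chd3 (248 CPM), Dnah2 (23.1 CPM), Efnb3, Atp1b2 and Fxr2. It is the lowest for Kcnab3 (26.8 CPM), Tmem88, Cyb5d1, Wrap53, Shbg, Sat2 and Mpdu1.

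Xaf1 (ENSMUSG00000040483, chr11:72301629-72313733, plus strand), whose promoter is shown above, rose in KO. Its level was 4.98, 5.1 and 5.31 CPM (WT replicates 1 to 3) against 20.8, 17.0 and 15.5 CPM (KO replicates 1 to 3). The lowest KO library was far above the highest WT library. The log2 fold change was 1.79 ± 0.13 (SE; 95% confidence interval 1.5 to 2.08; adjusted p = 0.000487, edgeR). It was called in each of the 13 alternatives, with adjusted p between 3.85e-30 and 0.027 and log2 fold changes between 1.65 and 1.88, and its exons share no bases with another gene. Its level per length was low, at 2.44 CPM per kb over the 6 libraries.

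Interferon induces Xaf1 along with a wide set of genes, and 32 of these were tested. Xaf1 was the only one called, where 0.219% of all genes tested were called. Of the 32 including Xaf1, 26 had a positive log2 fold change, and the median was 0.22. The groups of 9 of the 32, Xaf1 among them, did not overlap, against 15.6% of all genes tested. Their summed level was 619 to 676 CPM in WT and 630 to 900 CPM in KO, highest in KO replicate 1. Rsad2, an antiviral gene with the next largest increase of the list, was at 3.35, 4.74 and 4.60 CPM (WT) against 9.85, 5.72 and 5.05 CPM (KO) (log2 fold change 0.70, adjusted p = 0.482, edgeR). Ifi27 was at 90.3, 98.9 and 96.3 CPM (WT) against 150.1, 117 and 111 CPM (KO) (0.41, adjusted p = 0.305, edgeR). Both had KO replicate 1 highest and KO replicate 3 lowest among the KO libraries, as Xaf1 did. The summed immune, endothelial and red blood cell markers had that order too, the last at 2260, 1339 and 830 CPM in KO replicates 1 to 3, and their part in the level of Xaf1 was not tested. Without KO replicate 1 the log2 fold change of Xaf1 was 1.65 (adjusted p = 0.000606, edgeR).

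The 4 nearest tested members on each side of Xaf1 were mixed. Just before it, 4930563E22Rik was at 0.603, 0.525 and 0.892 CPM (WT) against 1.47, 1.51 and 1.02 CPM (KO) (0.98 ± 0.27, SE, adjusted p = 0.305, edgeR). Slc13a5, which encodes a citrate transporter, was at 0.195, 0.336 and 0.297 CPM (WT) against 0.576, 0.400 and 0.706 CPM (KO) (1.03 ± 0.34, SE, adjusted p = 0.405, edgeR). Both are low and share part of their exons with another gene. Together with Xaf1 they form a run of 3 tested members over 99 kb with each KO library above each WT library, of which only Xaf1 was called. Just after Xaf1, Tekt1, a tektin of cilia and flagella, was at 0.837, 0.672 and 0.853 CPM (WT) against 0.192, 0.377 and 0.436 CPM (KO), which is the opposite direction (-1.23 ± 0.32, SE, adjusted p = 0.270, edgeR). The groups of the other 5, Txndc17, Med31, Smtnl2, Ggt6 and Mybbp1a, overlapped. Mybbp1a, a nucleolar protein that binds MYB, was at 211, 228 and 212 CPM (WT) against 192, 220 and 207 CPM (KO). Without KO replicate 3, 4930563E22Rik and Tekt1 were called (adjusted p = 0.0325 and 0.0457, edgeR), and neither was called in another alternative.

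**Figure D4:**
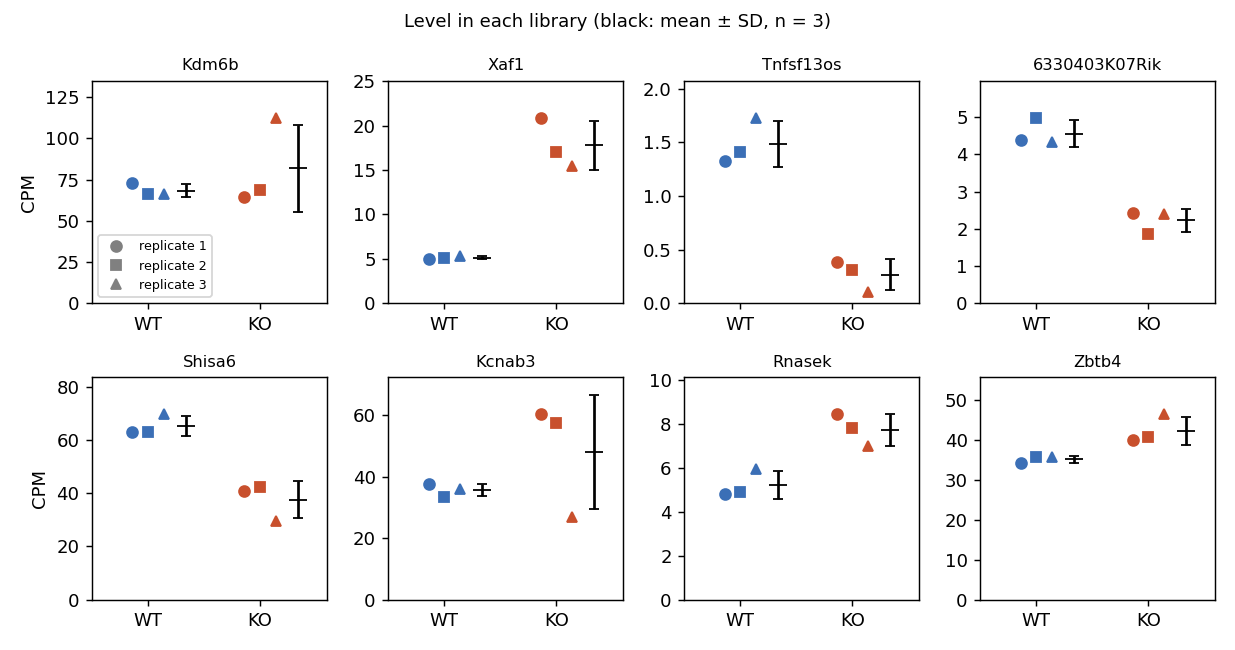
Level in CPM in each library for Kdm6b and 7 members, with the mean ± SD (n = 3) in black beside each group; axes start at 0 and differ between panels. The WT and KO points do not overlap for Xaf1, Tnfsf13os, 6330403K07Rik, Shisa6, Rnasek and Zbtb4, and they overlap for Kdm6b and Kcnab3.

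Tnfsf13os (ENSMUSG00000085890, chr11:69682138-69691141, plus strand) is an antisense transcript at the gene of the cytokine APRIL (Tnfsf13), and it fell in KO. It was at 1.32, 1.41 and 1.73 CPM (WT) against 0.384, 0.306 and 0.104 CPM (KO). Each KO library was below each WT library, with 258 counts over all 6 libraries. The log2 fold change was -2.49 ± 0.36 (SE; 95% confidence interval -3.30 to -1.67; adjusted p = 0.0349, edgeR). The call was lost without any 1 of WT replicates 1, 2 and 3 (adjusted p = 0.136, 0.215 and 0.256), without KO replicate 2 (0.095) and with the replicate number as a block (0.149), while the fold change stayed between -2.88 and -2.09. Of its exon bases, 22.8% are shared with Tnfsf13 and Tnfsfm13, and the strand setting of the counting is not stated in the sources at hand, so reads of the partners cannot be told apart there. Tnfsf13 was at 1.63, 1.89 and 2.06 CPM (WT) against 1.73, 1.27 and 0.997 CPM (KO) (-0.48 ± 0.23, SE, adjusted p = 0.579, edgeR), with overlapping groups. Tnfsf12, the gene of the related cytokine TWEAK, was at 8.33, 11.1 and 9.89 CPM (WT) against 13.1, 11.4 and 7.95 CPM (KO), and Tnfsfm13, which joins the 2 cytokine genes, at 3.02, 3.69 and 4.12 CPM (WT) against 4.27, 3.86 and 3.49 CPM (KO), and the groups of both overlapped.

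Among the members that missed the threshold, 6330403K07Rik (chr11:71031941-71033513, minus strand), named here after its values were seen, was at 4.38, 4.97 and 4.32 CPM (WT) against 2.43, 1.86 and 2.39 CPM (KO). Its groups were well apart, and its exons share no bases with another gene. The log2 fold change was -1.03 ± 0.17 (SE; adjusted p = 0.0512, edgeR), and over the 13 alternatives the adjusted p ran from 1.2e-05 to 0.28. Shisa6, on the minus strand, encodes an auxiliary subunit of AMPA-type glutamate receptors in neurons, and its lowest coordinate lies 3.19 Mb before Kdm6b. It was at 63.1, 62.9 and 69.6 CPM (WT) against 40.7, 42.2 and 29.6 CPM (KO). The lowest WT library was more than 20 CPM above the highest KO library (-0.80 ± 0.13, SE, adjusted p = 0.0751, edgeR). Its adjusted p over the 13 alternatives ran from 1.39e-05 to 0.435, and without KO replicate 3 it was 0.000157 with a log2 fold change of -0.65.

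Counts of called members moved with the method and with KO replicate 3. DESeq2 called 5 members (2.87%, against 1.21% of all genes): Xaf1 and Rnasek higher, Tnfsf13os, 6330403K07Rik and Shisa6 lower. Limma-voom called 4 (2.30%, against 0.395%), Xaf1 higher and the same 3 lower. EdgeR with no filter on low counts called 5 of 253 (1.98%, against 0.617%), these 4 and Cldn7, a tight junction gene, which was lower (adjusted p = 0.0379). Without KO replicate 3, edgeR called 10 of 176 members (5.68%), against 2.26% of all genes. These were Xaf1, Kcnab3, Slc2a4, Rnasek, Derl2 and 4930563E22Rik higher, and Tnfsf13os, Shisa6, 6330403K07Rik and Tekt1 lower.

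Slc2a4, the gene of the insulin-responsive glucose transporter GLUT4, was at 0.953, 0.965 and 1.13 CPM (WT) against 2.11, 1.81 and 1.16 CPM (KO). Replicates 1 and 2 of KO were well above WT and replicate 3 was close to it (0.74 ± 0.25, SE, adjusted p = 0.423, edgeR; without KO replicate 3, 0.95 with 0.0324). Rnasek, a small membrane protein linked to the vacuolar proton pump, was at 4.81, 4.93 and 5.97 CPM (WT) against 8.45, 7.82 and 7.0 CPM (KO) (0.57 ± 0.14, SE, adjusted p = 0.241, edgeR). Of its exon bases, 67.7% are shared with the predicted gene Gm21988, so its value is uncertain. Derl2, which helps to clear misfolded proteins from the endoplasmic reticulum, was at 72.9, 69.1 and 74.1 CPM (WT) against 97.0, 83.1 and 67.8 CPM (KO) (0.20 ± 0.12, SE, adjusted p = 0.646, edgeR). Its KO replicate 3 was below the WT range, and without it the log2 fold change was 0.32 (adjusted p = 0.0418, edgeR).

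A run of 6 tested members that follow each other, passing over genes left out by the rule, had each KO library above each WT library over 66 kb that begins 0.341 Mb before Kdm6b. These were 9330160F10Rik, Borcs6, Tmem107, Vamp2, 9130213A22Rik and Hes7, with log2 fold changes from 0.05 to 0.88. None was called, and 4 of them share exon bases in 2 opposite-strand pairs, 9330160F10Rik with Borcs6 and 9130213A22Rik with Hes7. The run was the longest among the members and was singled out after the values were seen. Of all genes tested, 7.68% had each KO library above each WT library. How often such runs occur elsewhere was not counted. Vamp2, a vesicle fusion protein of the SNARE family with no shared exon bases, was at 46.4, 45.6 and 49.3 CPM (WT) against 54.3, 53.2 and 56.6 CPM (KO) (0.22 ± 0.07, SE, adjusted p = 0.368, edgeR). Hes7, a transcriptional repressor of the segmentation clock, was at 0.292, 0.252 and 0.377 CPM (WT) against 0.533, 0.589 and 0.581 CPM (KO) (0.88 ± 0.28, SE, adjusted p = 0.378, edgeR). Borcs6, part of a complex that positions lysosomes, was at 9.38, 10.5 and 9.74 CPM (WT) against 13, 10.7 and 10.8 CPM (KO). Tmem107, a protein of the ciliary transition zone, was at 16.7 to 17.3 CPM in WT and 17.4 to 17.8 CPM in KO, so its groups were apart by a very small step. The promoters of Borcs6 and Hes7, printed above, have 29 and 14 CpG pairs.

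The next tested member along the chromosome, Aloxe3, went the other way. It encodes an epidermal lipoxygenase and was at 0.778, 1.01 and 1.01 CPM (WT) against 0.469, 0.471 and 0.353 CPM (KO) (-1.11 ± 0.25, SE, adjusted p = 0.212, edgeR). Of the 6 lipoxygenase genes of the stretch, 3 were tested and none was called, and Alox12 and Alox15 had overlapping groups. Ccdc42, a coiled-coil gene 0.81 Mb before Kdm6b that is named here after its values were seen, was at 0.856, 0.525 and 0.615 CPM (WT) against 0.341, 0.283 and 0.270 CPM (KO) (-1.15 ± 0.30, SE, adjusted p = 0.270, edgeR).

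Where groups did not overlap and the mean reached 5 CPM, the largest increases after Xaf1 and Rnasek were those of Tmem220 (0.44), Slc25a35 (0.32), Rnf227 (0.32), Zbtb4 (0.27), Rnf167 (0.23) and Camta2 (0.23). None was called. Slc25a35, a mitochondrial carrier, was highest in KO replicate 3, and without that library its log2 fold change was 0.19 (adjusted p = 0.302, edgeR). Zbtb4, a zinc finger protein that binds methylated CpG, was at 34.1, 35.6 and 35.6 CPM (WT) against 39.9, 40.7 and 46.3 CPM (KO) (adjusted p = 0.328, edgeR). Camta2, a calmodulin-binding transcription activator, was at 17.5 to 18.7 CPM in WT and 20.4 to 22 CPM in KO (adjusted p = 0.405, edgeR). The largest decreases after Shisa6 were those of Rpain (-0.37), Ybx2 (-0.27), Zfp3 (-0.21), Nup88 (-0.17), Pimreg (-0.17) and Arrb2 (-0.14), and none was called. Ybx2, an RNA-binding protein of germ cells, was at 17.1, 18.6 and 20.3 CPM (WT) against 15.1, 14.6 and 16.8 CPM (KO) (adjusted p = 0.445, edgeR). The oocyte marker list was lower in KO as well, at 927 to 1185 CPM in WT and 753 to 849 CPM in KO, with 0 of 14 called, and its part in Ybx2 was not tested. Rpain, which carries replication protein A into the nucleus, and the adjacent nuclear pore gene Nup88 were both lower, with Nup88 at 91.0 to 98.7 CPM in WT and 80.2 to 88.3 CPM in KO.

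The most abundant members per length are mostly genes that all cells need, and none of them was called. Rpl26, a ribosomal protein, stood highest at 370 CPM per kb, followed by the translation factors Eif5a at 202 and Eif4a1 at 199 CPM per kb, Atp1b2 at 131, the actin-binding profilin Pfn1 at 126, the autophagy protein Gabarap at 86.3, the proteasome subunit Psmb6 at 79.6 and C1qbp at 52.0. These are means over all 6 libraries. Their log2 fold changes lay between -0.10 (Rpl26) and 0.17 (Atp1b2), and the groups overlapped in all 8 but Atp1b2. Eif4a1 was at 879, 900 and 810 CPM (WT) against 847, 855 and 891 CPM (KO), a log2 fold change of 0.00 ± 0.09 (SE). The directions for Eif5a, Eif4a1, Gabarap, Psmb6 and C1qbp turn in at least 1 alternative.

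By function, apart from Xaf1 no listed member was called by edgeR with all 6 libraries and the filter on low counts. Of all genes tested 0.219% were called, so a lack of calls in such short lists says little. Of 14 tested genes of apoptosis and innate immunity, 13 were not called, and the median over the 14 was 0.08. They include Nlrp1b, an inflammasome sensor (0.126 to 0.278 CPM in WT and 0.311 to 0.400 in KO), and Cd68, a macrophage gene at 7.98, 9.49 and 10.6 CPM in WT and 12.1, 9.89 and 7.70 CPM in KO, with overlapping groups. The medians were -0.01 for 16 genes of transcription, translation and protein turnover, 0.02 for 12 of chromatin and cofactors, 0.04 for 20 of mitochondria and metabolism, 0.05 for 21 of signalling, 0.06 for 17 of the cytoskeleton and vesicle traffic, and 0.12 for 10 of nerve and muscle. Shbg and Gltpd2, a gene of the glycolipid transfer protein family, had overlapping groups. The median over all genes tested was 0.004. Of the 7 myosin heavy chain genes, 4 were tested, and Myh10 was the abundant one, the non-muscle form found in most tissues. It was at 177, 188 and 188 CPM (WT) against 187, 217 and 229 CPM (KO) (0.19 ± 0.09, SE, adjusted p = 0.558, edgeR), and Myh2, Myh8 and Myh13 were each under 1 CPM in all libraries.

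Of the members that were not tested, 100 had no count and 79 had counts under the filter. All 44 olfactory receptor genes of the stretch, which act in the nose, were untested, and 39 of them had no count in any library. Of the 353 members, 223 are annotated as protein coding, and 162 of the 174 tested members were of that kind.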

How the data were processed

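Granulosa cell RNA was sequenced as paired reads of 150 bases, and the authors deposited raw read counts for each gene. The submitters' processing notes list GRCm38, featureCounts, Subread 1.5.2, STAR 2.5.2b and Trimmomatic 0.36. The annotation release, strand setting and treatment of reads with several matches are not stated in the sources at hand, so overlapping and antisense genes are uncertain. Of the 353 members, 351 matched GENCODE M21 by identifier, and 350 of these had the same start and end.

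All 6 libraries were fitted in edgeR 4.0.16 (R 4.3.3): filterByExpr, TMM scaling, robust quasi-likelihood test, genotype as the only term, Benjamini-Hochberg adjustment over 18250 genes, calls at 0.05. CPM come from the TMM-adjusted library sizes, and 1 CPM is 42.5 to 51.4 counts. Alternatives were RLE and upper quartile scaling, other filters, DESeq2 1.42.0, limma-voom 3.58.1 with quality weights, a replicate block, each library left out, narrower windows and members without shared exon bases. The fit was tested on simulated data.

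Members and gene lists were chosen with earlier results of these data known. Named members are Xaf1, called members, the 8 tested genes nearest to Kdm6b on each side (mean of at least 1 CPM), the 4 nearest to Xaf1 on each side, the 8 largest increases and decreases (mean of at least 5 CPM, no overlap between groups, no predicted genes), the 8 highest per kb and the 4 smallest p of each functional list. Other named members (10 of 77) were chosen after their values were seen: 6330403K07Rik, Ccdc42, Borcs6, Tmem107, 9330160F10Rik, 9130213A22Rik, Cldn7, Cd68, Tnfsf12 and Tnfsfm13.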

Additional observations from a re-analysis of the deposited data

How the results depend on the processing

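Xaf1 kept its direction and its call in all 13 alternatives. The count of called members, 2 in the fit reported, was 5 with no filter, 1 at a mean of at least 1 CPM, 5 with DESeq2, 4 with limma-voom, 1 within 1 Mb, 1 within 2.5 Mb, 1 without shared exon bases, and 1 to 10 with a library left out. Over all genes, 40 calls became 199 with no filter, 21 at a mean of at least 1 CPM, 220 with DESeq2, 72 with limma-voom and 8 to 421 with a library left out, the last without KO replicate 3. With the replicate number as a block, 15 genes and 1 member (Xaf1) were called. Deviations from the group means of same-numbered libraries had r of -0.02, 0.07 and -0.03, and those of other pairs -0.067 to 0.059. With 3 libraries per group this cannot show whether same-numbered libraries share a day or batch. Members whose groups do not overlap were 49 of 174 (28.2%, against 15.6% of all genes tested). Within 1 Mb they were 23 (11 of 29 before Kdm6b and 12 of 57 after it), and 29 of 114 without shared exon bases. At a mean of at least 1 CPM they were 36 of 136 (26.5%, against 15.8% of all genes). With no filter they were 60 of 253 (23.7%, against 11.9%), and the other scalings gave counts between these. The counts thus move with the filter and the number of genes tested. They also move with the scaling, since upper quartile scaling gave 43 of the same 174 members. With a library left out, the median log2 fold change of the members ran from -0.004 (without KO replicate 1) to 0.047 and that of Kdm6b from -0.038 to 0.398. The number of members without overlap within 1 Mb, whose alternatives were chosen after seeing the data, was 23 and ran from 16 to 33. These are counts and not shares of the members tested. Over all genes, the share without overlap ran from 11.9% (no filter) to 32.9% (without KO replicate 3) across scalings, filters and libraries left out.

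Of 77 named members, 21 changed sign in some alternative, none past the threshold. With a library left out, log2 fold changes ran from -0.127 to 0.375 for Tmem88, -0.056 to 0.005 for Cyb5d1, -0.016 to 0.103 for Trappc1, -0.145 to 0.005 for Cntrob, -0.124 to 0.008 for Efnb3, -0.061 to 0.052 for Wrap53, -0.06 to 0.089 for Fxr2 and -0.098 to 0.198 for Mpdu1. They ran from -0.798 to 0.398 for Ggt6, -0.041 to 0.043 for Eif5a, -0.042 to 0.024 for Eif4a1, -0.035 to 0.068 for Gabarap, -0.053 to 0.013 for Psmb6 and -0.052 to 0.056 for C1qbp. They ran from -0.028 to 0.493 for Alox12, -0.267 to 0.894 for Alox15, -0.369 to 0.037 for Myh2, -0.318 to 0.178 for Gltpd2, -0.1 to 0.233 for Cd68, -0.024 to 0.326 for Tnfsf12 and -0.014 to 0.206 for Tnfsfm13. In limma-voom, Cyb5d1 was at 0.01, Wrap53 at 0.011, Fxr2 at -0.036, Eif4a1 at -0.008, Gabarap at -0.004 and Gltpd2 at 0.062. Under upper quartile scaling, Eif5a was at -0.023, Eif4a1 at -0.021 and C1qbp at -0.013. With no filter these were at -0.014, -0.012 and -0.004, and at a mean of at least 1 CPM Eif5a was at -0.008 and Eif4a1 at -0.006. The cause of these moves was not tested. Depth limits the low members: 37 of the 174 tested had a mean under 1 CPM, which is at most 51.4 counts.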
